A study of Mus musculus with 12 samples.

Results

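The interferon response genes described here are 40 genes that cells switch on after interferon, chosen by name from the 24325 gene symbols of each expression table; all 40 were found. Their mRNA was measured in activated B cells, pre-plasmablasts and plasmablasts, with and without the endoplasmic reticulum co-chaperone Mzb1. Splenic B cells of C57BL/6 mice were purified with B220 beads and cultured for 4 days with 25 µg/ml LPS, the bacterial lipopolysaccharide that drives B cells to divide and secrete antibody. Wild-type cells (wt) were Mzb1+/+ Prdm1+/gfp and knockout cells (ko) were Mzb1-/- Prdm1+/gfp. In both, 1 allele of Prdm1 carried the gfp reporter of Blimp1, so all groups had 1 intact Prdm1 allele. The sort gave activated B cells (ActB, CD138- and Blimp1-GFP-), pre-plasmablasts (PrePB, CD138- and Blimp1-GFP+) and plasmablasts (PB, CD138+ and Blimp1-GFP+). Each of the 6 groups had 2 libraries of poly(A) RNA, 12 in all, and values are FPKM (fragments per kilobase of transcript, scaled to the number of mapped fragments). The labels give no sex and do not say that the 2 libraries of a group came from different mice. The p-values therefore measure the spread between libraries, which in ko may be technical. In wild type, Xist and Ddx3y differed between the 2 libraries of each population as between female and male cells (values below). The wild-type spread is thus not only technical.

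Type I interferons bind the receptor made of Ifnar1 and Ifnar2, and the kinases Jak1 and Tyk2 then start a signal in which Stat2 and Irf9 take part in a complex that binds interferon-stimulated response elements (ISREs) in target promoters. Interferon gamma acts through Ifngr1 and Ifngr2 on promoters with gamma-activated sites (GAS). Target genes encode sensors of viral RNA and DNA, enzymes and membrane proteins that block viral growth, GTPases that attack vacuoles of intracellular microbes, and Irf7, which amplifies interferon production. B cells exposed to LPS signal through Tlr4.

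The sequences shown are promoter stretches with the core of the ISRE, since members that rose and members that fell during differentiation both carried it. RefSeq promoter windows (GRCm38.p6, 250 bases before to 50 after each transcription start) matched 30 of the 40 members, with 35 windows. The core searched was GAAA, any 2 bases and GAAA again, on both strands, with overlapping matches merged. It was present in 17 of the 35 member windows (48.6%) and in 3.44% of all 32851 windows of the table. Of the matched members that were higher in wild-type PB than in ActB, 4 of 8 genes had it, and of those that were lower, 9 of 14 did. Irf7, which had the largest rise, had no match in its window, and Gbp2, which had the largest fall, had 1. The GAS letters, TTC and GAA with any 3 bases between, were found in 22.9% of member windows and 8.30% of all windows. Below, each stretch runs 5′ to 3′ on the gene's own strand, and capitals mark the core, read as GAAA or as its reverse complement TTTC. Isg15, Bst2 and Igtp rose from wild-type ActB to PB, and the other members fell.
Isg15 (chr4:156200871-156200900, minus strand): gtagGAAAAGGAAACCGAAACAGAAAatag
Bst2 (chr8:71537580-71537609, minus strand): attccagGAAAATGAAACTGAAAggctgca
Igtp (chr11:58199512-58199541, plus strand): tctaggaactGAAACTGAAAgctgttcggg
Ifit1 (chr19:34640775-34640804, plus strand): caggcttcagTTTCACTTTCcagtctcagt
Oas1a (chr5:120907523-120907552, minus strand): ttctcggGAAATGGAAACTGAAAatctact
Gbp2 (chr3:142620594-142620623, plus strand): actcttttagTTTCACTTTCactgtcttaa
Gbp3 (chr3:142559992-142560021, plus strand): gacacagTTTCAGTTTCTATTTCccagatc
Gbp7 (chr3:142530273-142530302, plus strand): gtgtgtgcagTTTCAGTTTCagttctccat
Irgm1 (chr11:48871428-48871457, minus strand): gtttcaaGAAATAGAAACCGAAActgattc
Isg15 carried 3 overlapping cores in its stretch, and Bst2, Oas1a, Gbp3 and Irgm1 carried 2 each. A match of letters is a description of the window, not a measured binding site.

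The libraries held 10180 to 10466 genes at 1 FPKM or more, and no read counts were used, so absolute depth is unknown. Mzb1, the deleted gene, was at 845 and 1016 FPKM in wild-type ActB and at 15434 and 17359 FPKM in wild-type PB. In ko libraries it was at 273 and 289 FPKM in ActB and at 1008 and 926 FPKM in PB, below the wild-type libraries of each population. Sdc1, which encodes CD138, rose from at most 1.43 FPKM in ActB to at least 66.5 FPKM in PB, and Prdm1 was at most 25.4 FPKM in ActB and at least 218 FPKM in PB. In each population, wild-type replicate 1 stood apart: Xist was at 81.4, 35.3 and 33.3 FPKM there and at most 0.389 FPKM in the other 9 libraries, which held Ddx3y at 15.7 FPKM or more. Ddx3y, a gene of the Y chromosome, was at 0.0193, 0.0479 and 0 FPKM in wild-type replicate 1 of ActB, PrePB and PB. All ko libraries held Ddx3y, so this trait is unbalanced in every ko against wt comparison. Low values also fell into 2 numerical patterns, for which the labels name no batch. Among genes below 0.5 FPKM, 9.07% to 20.5% shared 1 exact ratio between any 2 of a set of 8 libraries, 7.70% to 16.6% did so within the other 4 libraries, and 2.13% to 4.89% across the sets. The set of 4 consisted of both ko PB libraries and replicate 2 of ko ActB and ko PrePB. Among the set of 8, relative depth ran from 0.928 to 1.83 times that of wild-type PB replicate 1. The granulocyte markers summed to at most 0.413 FPKM, the natural killer list to at most 6.76 FPKM and the T cell list to at most 12.4 FPKM in any library. Of the macrophage list, 7 genes were in the files and their sum was 18.8 to 39.9 FPKM in ActB and 46.3 to 67.4 FPKM in PB. Within it, Adgre1 fell from at least 7.84 FPKM in ActB to at most 0.844 FPKM in PB, Cd68 and Ly6c2 rose to at least 27.1 and 16.0 FPKM in PB, and Csf1r, Cd14 and Fcgr1 stayed below 1 FPKM. Of the 7 plasmacytoid dendritic cell markers, Klk1 was listed at 0 in all libraries and Siglech reached 0.523 FPKM in ActB and was listed at 0 in PB. Of the other 5, which were tested, 3 rose from wild-type ActB to PB and 1 fell. Pacsin1 went from 2.41 and 1.71 FPKM to 15.2 and 11.4 FPKM, Ccr9 from 0.228 and 0.319 FPKM to 1.07 and 0.840 FPKM, Ly6d, which B cells also express, from 910 and 1127 FPKM to 1901 and 1542 FPKM, and Cox6a2 from 18.9 and 23.8 FPKM to 6.75 and 12.7 FPKM. Tcf4 stayed between 28.2 and 34.9 FPKM in all libraries. The conventional dendritic cell list summed to 18.7 to 24.1 FPKM in ActB and 7.63 to 10.1 FPKM in PB. Its 2 tested genes fell from wild-type ActB to PB, Flt3 from 21.0 and 18.6 FPKM to 6.90 and 7.94 FPKM and Itgax from 1.72 and 0.688 FPKM to 0.214 and 0.115 FPKM. The other 4 stayed below 1 FPKM. The part of such cells in the results was not tested.

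The 40 members spanned a wide range of levels. Of these, 38 reached 1 FPKM in at least 2 libraries and were tested, and 29 were at 1 FPKM or more in all 12 libraries. Ifit3 and Ifi44 were not tested. Ly6e, a membrane protein that affects viral entry, had the highest level per transcript length, from 627 to 1611 FPKM. Ifi27l2a, Bst2, Zbp1, Irf7, Isg15, Samhd1, Sp100 and Tap1 also exceeded 100 FPKM in some library. At the other end, Ifit2, Ifit3, Oasl2, Mx2, Rsad2 and Ifi44, several of them classical markers of a strong interferon response, stayed below 2 FPKM in every library. Among the ligands, 21 interferon genes were in the files and 17 were listed at 0 everywhere. The highest value of any type I or type III interferon was 0.275 FPKM.

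**Figure D1:**
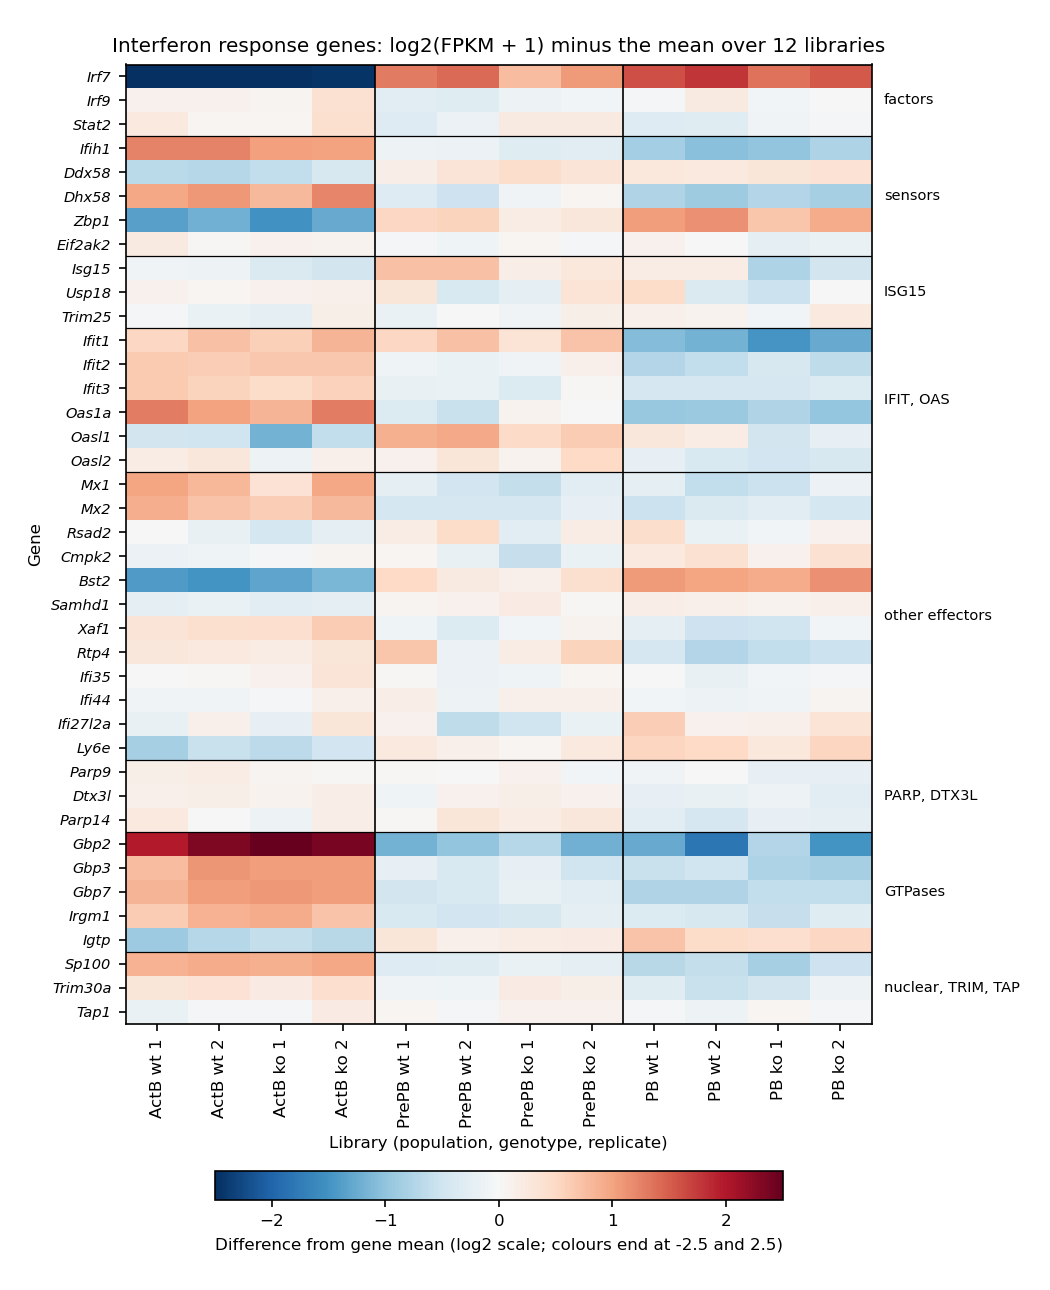
Levels of the 40 interferon response genes in each library, as log2(FPKM + 1) minus the gene's mean over 12 libraries (red above, blue below), with genes grouped by role on the vertical axis and libraries by population on the horizontal axis. Irf7, Zbp1, Bst2 and Igtp are lowest in ActB, whereas Gbp2, Ifih1, Dhx58, Oas1a and Sp100 are highest there.

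Differentiation from wild-type activated B cells to plasmablasts moved the members in both directions, with falls more frequent than rises. Of 38 tested members, 10 were higher and 20 were lower in PB (limma, adjusted p below 0.05). Over all 11069 genes tested, 62% were called, 31% higher and 31% lower. The median log2 change of the members was -0.27, against -0.014 over all genes. The change is on the log2(FPKM + 1) scale throughout, which understates the change of genes at low levels. When libraries were rescaled to equal totals, the median of all genes moved to -0.38 and the split of the members became 6 higher and 25 lower. On that scale 19.2% of all genes were called higher and 52.4% lower, so directions are relative to the scale of the deposited values. Without wild-type replicate 1 of all populations, falls also outnumbered rises among the members called. That fit leaves 1 wild-type library a group and its share of all genes called is not given, so it does not set the members against other genes. In bulk RNA, fewer expressing cells and less RNA per cell cannot be told apart.

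Among the transcription factors, Irf7 stood at the top of the rises. Its level was 5.67 and 5.65 FPKM in wild-type ActB, 103 and 113 FPKM in PrePB and 129 and 146 FPKM in PB. Every PrePB and PB library lay far above every ActB library, and the log2 change from ActB to PB was 4.37 (SE 0.17, limma adjusted p = 7.96e-09), a 20.7-fold rise on the FPKM + 1 scale. The rise was in place in PrePB, where the log2 change from ActB was 4.03, and the further step to PB of 0.34 did not pass the test (adjusted p = 0.252). Stat2 and Irf9, the partners of the ISRE-binding complex, did not follow it. Stat2 was at 21.5 and 18.8 FPKM in wild-type ActB and at 14.3 and 14.5 FPKM in PB, a log2 change of -0.46 (SE 0.12, limma adjusted p = 0.00726), a call lost without ActB replicate 1. Irf9 was at 23.9 and 23.9 FPKM in ActB and 21.6 and 25.9 FPKM in PB (log2 change -0.01, SE 0.11, limma adjusted p = 0.942), and the groups overlapped.

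The sensors of nucleic acids split. Zbp1, a sensor of Z-form nucleic acid that can trigger cell death, was at 39.8 and 44.6 FPKM in wild-type ActB, 148 and 153 FPKM in PrePB and 214 and 231 FPKM in PB. The groups did not overlap, and the log2 change from ActB to PB was 2.37 (SE 0.11, limma adjusted p = 2.19e-08). Ddx58, which encodes the RNA sensor RIG-I, rose from 11.95 and 11.49 FPKM to 23.6 and 23.3 FPKM (log2 change 0.94, SE 0.10, limma adjusted p = 1.09e-05). The other helicases of its family went the opposite way. Ifih1, which encodes MDA5, fell from 9.44 and 9.40 FPKM in ActB to 3.04 and 3.01 FPKM in PrePB and 1.46 and 1.16 FPKM in PB (log2 change -2.18, SE 0.12, limma adjusted p = 9.04e-08). Dhx58, which encodes the regulatory helicase LGP2, fell from 18.8 and 20.6 FPKM to 5.04 and 4.51 FPKM in PB (log2 change -1.84, SE 0.14, limma adjusted p = 9.33e-07). Eif2ak2, the kinase PKR that stops translation on viral RNA, had a log2 change of -0.07 and was not called in wild-type PB against ActB.

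The IFIT and OAS families, which bind foreign RNA or trigger its decay, fell in 4 of 5 tested members, and Oasl1 rose. Over all genes, 31% were called lower and 31% higher in wild-type PB against ActB. Ifit1 was at 5.19 and 6.23 FPKM in wild-type ActB, 5.23 and 6.18 FPKM in PrePB and 1.06 and 0.902 FPKM in PB. The ActB and PrePB libraries overlapped and both PB libraries lay below them, so the fall lay in the step from PrePB to PB (log2 change -1.76, SE 0.17, limma adjusted p = 0.000282). Oas1a fell earlier, from 5.17 and 4.13 FPKM in ActB to 1.00 and 0.737 FPKM in PrePB and 0.322 and 0.347 FPKM in PB (log2 change ActB to PB -2.08, SE 0.18, limma adjusted p = 2.16e-06). Oasl1, an OAS-like protein known to restrain translation of Irf7 mRNA, was highest in PrePB, with 22.8 and 22.3 FPKM in ActB, 59.4 and 61.9 FPKM in PrePB and 39.0 and 36.2 FPKM in PB. Its rise from ActB to PrePB was 1.39 on the log2 scale (SE 0.16, limma adjusted p = 3.03e-05), and the later fall of -0.68 (adjusted p = 0.0259) was lost when any of the 4 compared libraries was left out. Its ActB to PB change of 0.71 (limma adjusted p = 0.00249) was not called after rescaling or without wild-type replicate 1. Oasl2, the gene next to Oasl1, was at 0.55 to 1.43 FPKM in wild-type ActB and PB libraries and had a log2 change of -0.52, a call lost without either ActB library or without PB replicate 2. Members of these families resemble one another in sequence, and how reads shared between copies were counted is not given in the sources used here.

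**Figure D2:**
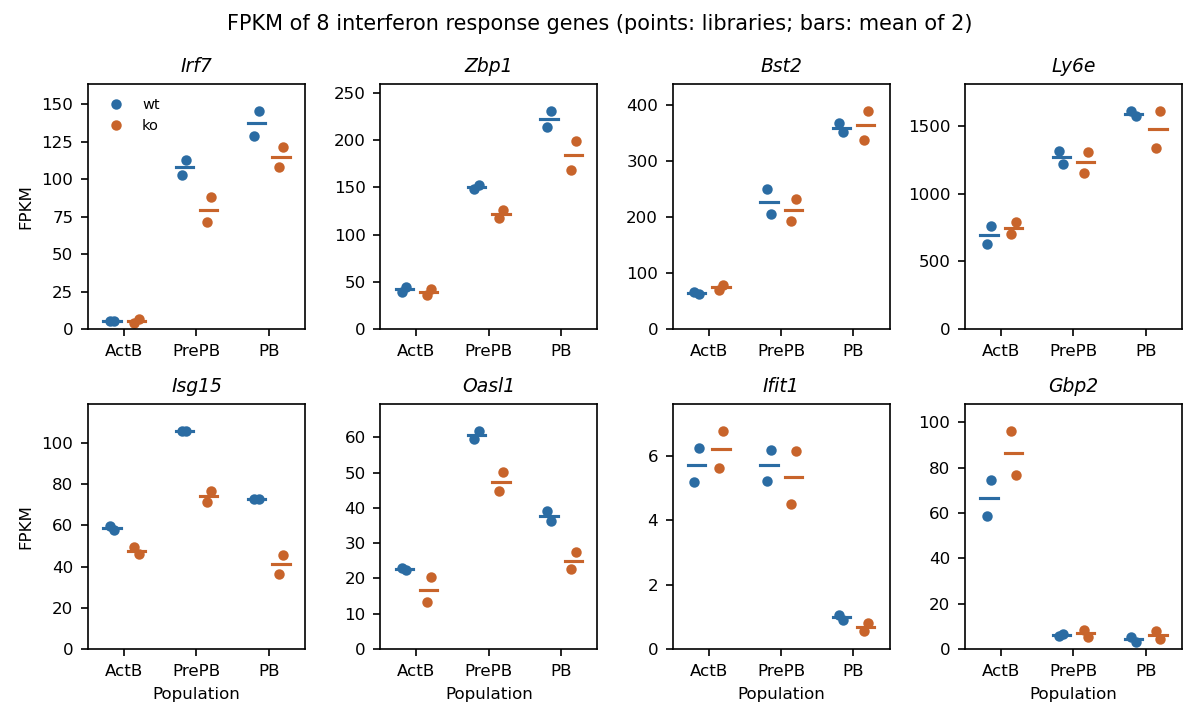
FPKM of 8 members (vertical axis, from 0) in ActB, PrePB and PB; each point is 1 library, bars are the mean of 2, blue is wild type and orange is knockout. Irf7, Zbp1, Bst2 and Ly6e rise, Isg15 and Oasl1 peak in PrePB, Ifit1 falls after PrePB, and Gbp2 falls before it; both ko libraries of Isg15 and Oasl1 lie below both wild-type libraries in each population.

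The interferon-induced GTPases, which attack pathogen vacuoles and respond mainly to interferon gamma, fell in 4 of 5 members. In that comparison, wild-type PB against ActB, 31% of all genes were called lower. Gbp2 was at 58.5 and 74.6 FPKM in wild-type ActB, 5.60 and 6.63 FPKM in PrePB and 5.31 and 3.32 FPKM in PB. No PrePB or PB library reached the level of any ActB library, and the log2 change from ActB to PB was -3.68 (SE 0.27, limma adjusted p = 6.74e-07). Gbp3 fell from 50.04 and 63.29 FPKM to 19.2 and 20.0 FPKM (log2 change -1.48, SE 0.13, limma adjusted p = 2.08e-06). Gbp7 fell from 7.10 and 8.29 FPKM to 1.69 and 1.68 FPKM (log2 change -1.69, SE 0.12, limma adjusted p = 3.91e-07). These guanylate-binding protein genes lie in 1 cluster, with no other coding gene between Gbp3 and Gbp7. Irgm1, a GTPase that regulates the others, had a log2 change of -1.12 and also fell. Igtp (IRGM3), a GTPase of the same immunity-related family as Irgm1, rose from 10.5 and 12.2 FPKM in ActB to 25.9 and 22.7 FPKM in PrePB and 34.5 and 28.9 FPKM in PB (log2 change ActB to PB 1.40, SE 0.11, limma adjusted p = 1.21e-06).

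Of the other antiviral effectors, 4 of 11 tested members rose and 4 fell from wild-type ActB to PB, near the shares of all genes (31% higher and 31% lower). Bst2 (tetherin), which holds budding virus at the membrane and is also a marker of plasma cells, was at 65.9 and 62.2 FPKM in wild-type ActB, 250 and 206 FPKM in PrePB and 368 and 352 FPKM in PB. The populations did not overlap at either step (ActB to PB log2 change 2.47, SE 0.12, limma adjusted p = 3.97e-08). Ly6e rose from 627 and 759 FPKM in ActB to 1607 and 1572 FPKM in PB (log2 change 1.20, SE 0.14, limma adjusted p = 2.11e-05). Cmpk2, a mitochondrial nucleotide kinase, was at 3.04 and 3.16 FPKM in ActB and 4.28 and 4.81 FPKM in PB (log2 change 0.43, limma adjusted p = 0.0371), a call lost when any of these 4 libraries was left out. Samhd1, which degrades deoxynucleotides, had a log2 change of 0.35 that became -0.061 after rescaling. The 4 that fell were Mx1, Mx2, Xaf1 and Rtp4, with log2 changes of -1.34, -1.26, -0.75 and -0.84. Rtp4 lost its call without ActB replicate 1 or without PB replicate 2. Ifi27l2a, Rsad2 and Ifi35 were not called, with log2 changes of 0.39, 0.23 and -0.11.

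Isg15, the ubiquitin-like protein that is joined to other proteins in the interferon response, peaked in PrePB. In wild type it was at 59.6 and 57.8 FPKM in ActB, 106 and 106 FPKM in PrePB and 72.6 and 72.8 FPKM in PB. The rise to PrePB was 0.84 on the log2 scale (SE 0.10, limma adjusted p = 3.83e-05). From ActB to PB the log2 change was 0.30 (limma adjusted p = 0.0199), which was lost when any 1 of the 4 libraries compared was left out and turned to -0.10 after rescaling. Usp18, the protease that removes Isg15, was at 1.31 to 1.41 FPKM in wild-type ActB and 0.746 to 2.08 FPKM in PB, with overlapping groups. Trim25, a ubiquitin ligase that acts with RIG-I, stayed between 40.4 and 56.3 FPKM in all 12 libraries and was not called in any comparison.

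Of the last groups, 5 of 6 tested members were lower in wild-type PB than in ActB, where 31% of all genes were called lower. Sp100, a nuclear body protein, fell from 135 and 141 FPKM in wild-type ActB to 58.6 and 59.7 FPKM in PrePB and 45.0 and 48.7 FPKM in PB (log2 change ActB to PB -1.54, SE 0.10, limma adjusted p = 2.63e-07). Trim30a, a ubiquitin ligase with close relatives in the genome, had a log2 change of -0.76. Tap1, the peptide transporter of antigen presentation, was at 119 and 131 FPKM in ActB and 129 and 123 FPKM in PB; it was not called on the deposited scale but was called lower after rescaling (log2 change -0.39, limma adjusted p = 0.0027). Parp9, Dtx3l and Parp14, which lie close together and act in ADP-ribosylation, had log2 changes of -0.21, -0.33 and -0.46 and were all called lower. These calls were small, and Parp9 lost its call when any of the 4 wild-type libraries was left out, Dtx3l without PB replicate 1, and Parp14 without ActB replicate 1 or PB replicate 2.

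Split into 2 steps, more members were called in the step before CD138 than in the step after it, as was the case over all genes. Of the tested members, 63.2% were called in the first step and 18.4% in the second. From wild-type ActB to PrePB, 9 members rose and 15 fell, where 53.4% of all genes were called, 27.1% higher and 26.3% lower. From PrePB to PB, 2 rose and 5 fell, where 8.73% of all genes were called, 5.02% higher and 3.7% lower. The comparisons share libraries (PrePB is in both), so they are not independent. The later step had Bst2 and Zbp1 higher and Ifih1, Ifit1, Isg15, Oasl1 and Parp14 lower. Leaving out any 1 of its 4 libraries gave 2 or 3 calls in place of 7, and Ifit1 and Ifih1 were called in each case. By group means, 22 of 40 members were highest in wild-type ActB, 7 in PrePB and 11 in PB, and 35 of 40 were highest in the same population in ko. These counts include the untested Ifit3 and Ifi44 and members whose means barely differ, such as Irf9. The shares over all genes are not given, so they do not set the members apart.

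In knockout cells, most members called in wild type were called again in the same direction. From ko ActB to ko PB, 8 members rose and 19 fell, where 62.2% of all genes were called, 31.2% higher and 30.9% lower. Of these, 25 were also called in wild type, all with the same sign, 8 higher and 17 lower. They were 83.3% of the wild-type calls and 92.6% of the ko calls. The share of all genes called in both genotypes is not given, so whether this agreement is particular to the members is not known. Irf7 in ko was at 4.09 and 6.80 FPKM in ActB, 71.6 and 88.0 FPKM in PrePB and 108 and 121 FPKM in PB (ActB to PB log2 change 4.19, SE 0.17, limma adjusted p = 1.05e-08). Gbp2 in ko fell from 96.4 and 76.6 FPKM to 8.05 and 4.33 FPKM in PB (log2 change -3.65, SE 0.27, limma adjusted p = 7.42e-07). Ifit1 again fell in the step from PrePB to PB (log2 change -1.89, limma adjusted p = 0.000179). Cmpk2, Isg15, Oasl2, Parp14 and Stat2 passed the test in wild type and not in ko, and Eif2ak2 and Ifi35 in ko and not in wild type. From ko ActB to PrePB, 9 rose and 13 fell, where 54.2% of all genes were called, 27.1% higher and 27% lower. From ko PrePB to PB 3 rose and 12 fell, where 10.8% of all genes were called, 6.57% higher and 4.24% lower. Leaving out any 1 of the 4 ko libraries of that last step gave 6 to 8 calls in place of 15.

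No member passed the test of a difference between the genotypes in how it changed. The difference of the ko effect between PB and ActB, between PrePB and ActB and between PB and PrePB was called for 0 of 38 members each by limma, where 0.0452%, 0.0361% and 0% of all genes were called. In each, 1 member (2.63%) had an unadjusted p below 0.05, against 4.15%, 3.57% and 2.46% of all genes. The lowest unadjusted p belonged to Isg15 for PB against ActB, with a difference of -0.52 (SE 0.14, limma adjusted p = 0.834).

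**Figure D3:**
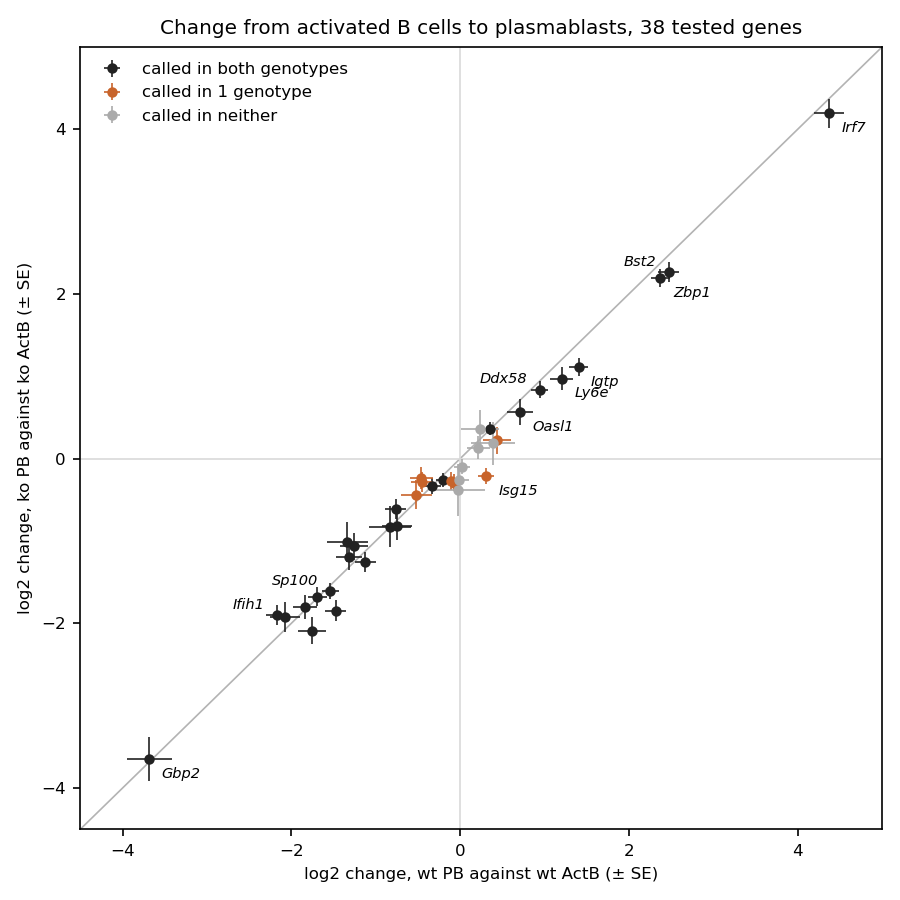
Log2 change from ActB to PB in wild type (horizontal axis) and in knockout (vertical axis) for 38 tested members, with bars of 1 SE; the grey diagonal marks equal change. Irf7, Bst2 and Zbp1 lie at the upper right and Gbp2 at the lower left near the diagonal, and Isg15 lies on opposite sides of 0 in the 2 genotypes. For Isg15, neither the ko change nor the difference between the genotypes was called.

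Isg15 was the 1 member called between the genotypes. In PB it was at 72.6 and 72.8 FPKM in wild type and at 36.6 and 45.8 FPKM in ko. Both ko libraries lay below both wild-type libraries, and the log2 change was -0.81 (SE 0.10, limma adjusted p = 0.0063), where 0.407% of all genes were called. It was lower in ko in PrePB as well, with 106 and 106 FPKM against 71.5 and 76.8 FPKM (log2 change -0.51, SE 0.10, limma adjusted p = 0.0938), and in ActB, with 59.6 and 57.8 FPKM against 49.3 and 46.0 FPKM (log2 change -0.30, SE 0.10, limma adjusted p = 0.496). Neither of these passed the test. The call in PB was lost without PB wild-type replicate 1 (limma adjusted p = 0.0629) or replicate 2 (0.0628) and when wild-type replicate 1 was left out of all populations (0.172). It was also lost when only the PB libraries were fitted (0.0522) and with a term for the numerical pattern of low values (0.119). In all these fits the log2 change lay between -0.817 and -0.811. Without ko replicate 1 or 2 of PB it was -0.65 and -0.97. In PB the numerical pattern coincides with genotype, since both ko libraries have the one and both wild-type libraries the other, so the 2 cannot be told apart there. In ActB and PrePB, ko replicate 1 shares the pattern of the wild-type libraries, and its Isg15 was 49.3 and 71.5 FPKM, below both wild-type libraries of its population. That is 1 ko library a population, in comparisons that were not called, so it does not separate pattern and genotype in PB.

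In ActB and PrePB, 0 members were called by limma, where 0.0542% and 0.117% of all genes were called. Isg15 included, 2 members in ActB, 8 in PrePB and 4 in PB had an unadjusted p below 0.05, which is 5.26%, 21.1% and 10.5% of the tested members. Over all genes the shares were 8.07%, 15.0% and 16.0%. Oasl1 was lower in both ko libraries than in both wild-type libraries of each population, as Isg15 was. In PB, Oasl1 was at 39.0 and 36.2 FPKM in wild type and 22.7 and 27.4 FPKM in ko (log2 change -0.57, SE 0.16, limma adjusted p = 0.129), and in PrePB at 59.4 and 61.9 FPKM against 44.7 and 50.1 FPKM (adjusted p = 0.331). Gbp7 was higher in both ko libraries in each population, with log2 changes of 0.12, 0.19 and 0.13. Among all genes, 6.04% were below and 5.18% above in all 3 populations, so 2 and 1 of 38 members is a share near the background. Irf7 was lower in both ko libraries of PrePB and of PB, with log2 changes of -0.44 and -0.26 that did not pass the test (limma adjusted p = 0.278 and 0.506). Zbp1 followed the same order, with -0.30 and -0.28 (limma adjusted p = 0.241 and 0.258). Stat2 had the lowest p in PrePB after Isg15, with 14.3 and 16.2 FPKM in wild type and 21.1 and 21.1 FPKM in ko (log2 change 0.45, SE 0.12, limma adjusted p = 0.158). The median change of the members from wild type to ko was 0.036 in ActB, 0.081 in PrePB and -0.025 in PB, against 0.0056, 0.014 and 0.025 over all genes.

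**Figure D4:**
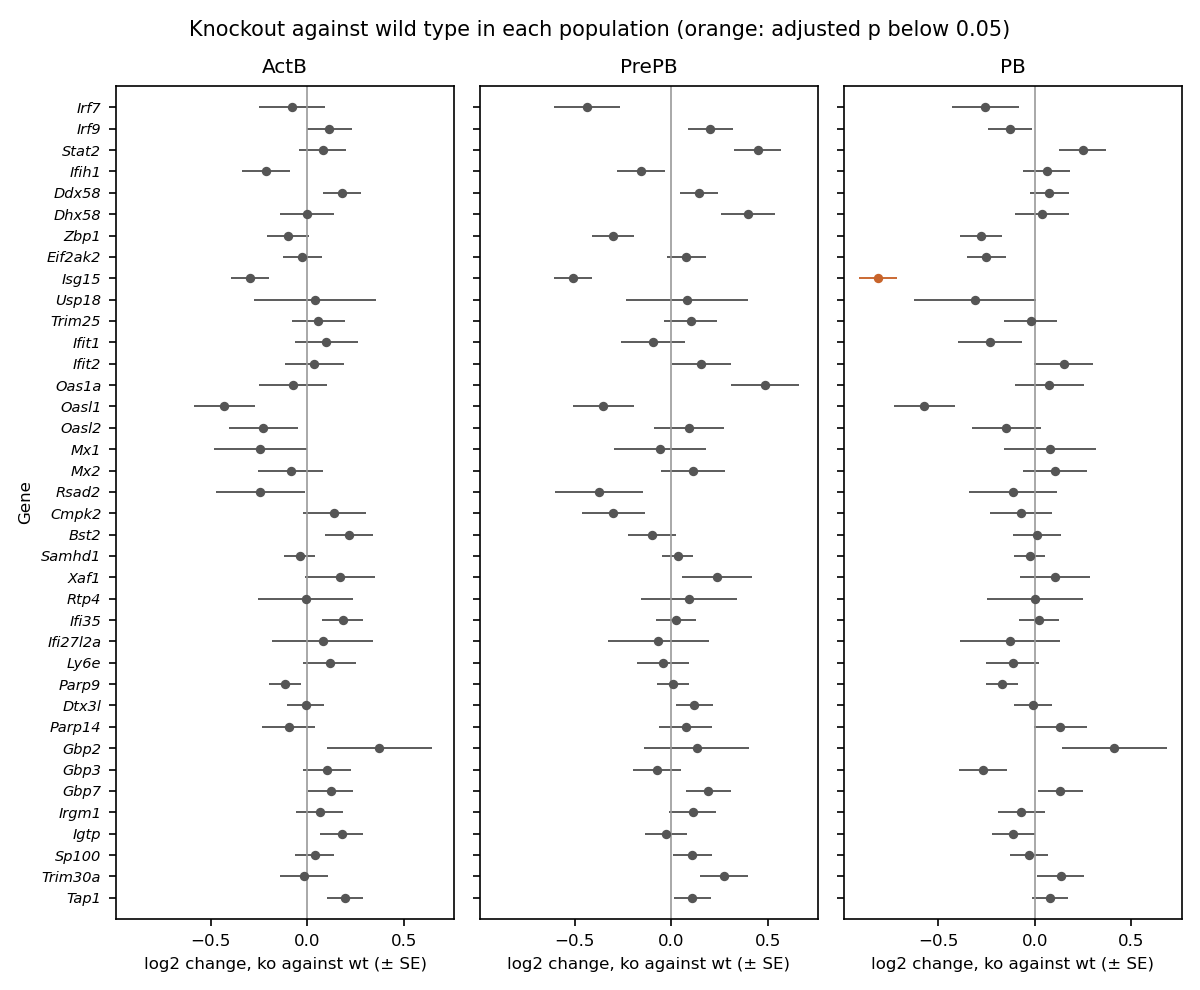
Log2 change from wild type to knockout (horizontal axis, bars of 1 SE) for 38 tested members (vertical axis) in ActB, PrePB and PB. Isg15 in PB, in orange at -0.81, is the call with adjusted p below 0.05; the other points lie between -0.57 and 0.49.

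The spread between the 2 libraries of a group differed among members. Usp18, Gbp2, Ifi27l2a, Rtp4 and Mx1 had the widest, with a pooled SD on the log2 scale of 0.38, 0.34, 0.33, 0.28 and 0.27, against a median of 0.14 over the tested members. Usp18 was even in wild-type ActB (1.41 and 1.31 FPKM) but was at 1.75 and 0.720 FPKM in PrePB and 2.08 and 0.746 FPKM in PB. Ifi27l2a was at 434 and 259 FPKM in wild-type PrePB and 619 and 435 FPKM in PB, again higher in replicate 1, but at 355 and 438 FPKM in ActB, lower in replicate 1. In ko, Usp18 was higher in replicate 2, at 0.888 and 1.82 FPKM in PrePB and 0.550 and 1.26 FPKM in PB in replicates 1 and 2. Gbp2 did not follow that order in ko, with 96.4 and 76.6 FPKM in ActB, 8.24 and 5.54 FPKM in PrePB and 8.05 and 4.33 FPKM in PB. Replicate 1 of wild type is the library set with Xist, and replicate 2 of ko belongs to the set of 4 libraries with the second numerical pattern; the part of either in this spread was not tested.

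Of the other genes of the pathway, 166 symbols were listed, 161 were in the files and 117 were tested. In wild-type PB against ActB, 32 were higher and 61 were lower, with a median log2 change of -0.35. Over all genes tested, 31% were called higher and 31% lower, with a median of -0.014. The split of these pathway genes after rescaling is not given. The 10 tested receptors and JAK-STAT genes split into 5 higher and 5 lower. Ifnar2, a chain of the type I interferon receptor, rose from 25.6 and 29.8 FPKM in wild-type ActB to 63.4 and 61.4 FPKM in PrePB and 137 and 157 FPKM in PB (log2 change ActB to PB 2.37, SE 0.12, limma adjusted p = 4.41e-08). Ifnar1, its partner chain, rose from 19.3 and 20.3 FPKM to 23.9 and 24.5 FPKM (log2 change 0.28, limma adjusted p = 0.0239). Rescaling moved the median of all genes to -0.38, so the direction of a change this small is relative to the scale. In ko, Ifnar1 was at 19.1 and 21.2 FPKM in ActB and 20.9 and 23.2 FPKM in PB and was not called, whereas Ifnar2 was called higher. The interferon gamma receptor genes fell, Ifngr1 by 0.84 and Ifngr2 by 1.51 on the log2 scale. Jak1 fell from 93.7 and 101 FPKM to 32.0 and 31.2 FPKM. Il10rb, shared by the receptors of interferon lambda and interleukin 10, rose by 0.89 on the log2 scale.

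**Figure D5:**
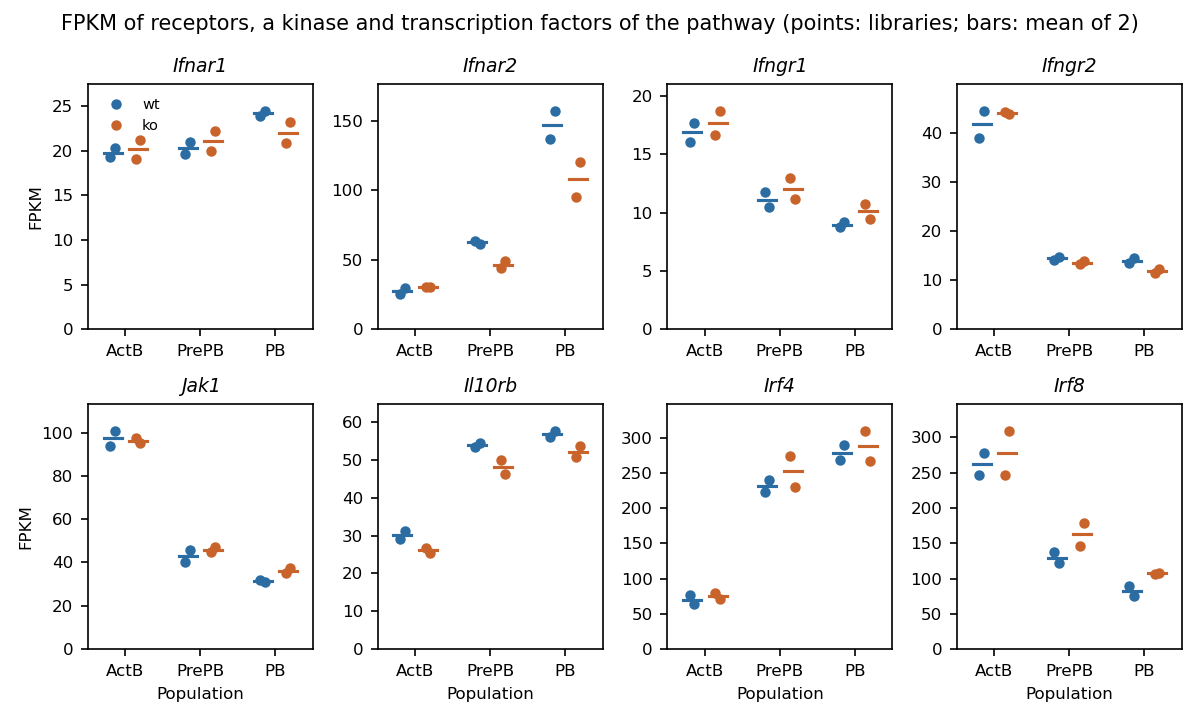
FPKM of 4 interferon receptor genes, Jak1, Il10rb, Irf4 and Irf8 (vertical axes, from 0) in ActB, PrePB and PB; points are libraries, bars are means of 2, blue is wild type and orange is knockout. Ifnar2, Il10rb and Irf4 rise with differentiation, whereas Ifngr1, Ifngr2, Jak1 and Irf8 fall.

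Among the other interferon regulatory factors and their binding proteins, 4 of 8 tested rose and 3 fell. Over all genes, 31% were called higher and 31% lower in wild-type PB against ActB. Irf4, which drives plasma cell differentiation, rose from 76.2 and 64.5 FPKM in wild-type ActB to 268 and 289 FPKM in PB, whereas Irf8 fell from 247 and 278 FPKM to 88.9 and 75.3 FPKM. Irf5 and Irf2bp2 fell by 1.44 and 2.77 on the log2 scale. Of 15 tested genes that lead to interferon induction, 4 rose and 7 fell. Tlr9, the sensor of bacterial DNA, fell from 55.2 and 54.8 FPKM to 0.375 and 0.583 FPKM (log2 change -5.25, SE 0.12, limma adjusted p = 3.86e-10). Tlr9 was also the 1 gene of the 117 (0.855%) called between genotypes in PB, where 0.407% of all genes were called. In ko PB it was at 1.57 and 1.36 FPKM (log2 change 0.74, limma adjusted p = 0.029). These values are low, and in PB the numerical pattern of low values coincides with genotype, so the 2 cannot be told apart there. Tlr4, the receptor of LPS, was at 3.10 and 2.64 FPKM in ActB and 2.91 and 3.38 FPKM in PB and was not called (log2 change 0.10). Ticam1, the adaptor TRIF, rose by 1.43 on the log2 scale, and Ticam2 and Myd88 fell by 1.60 and 0.61.

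The list of negative regulators also split, with 4 of 14 higher and 4 lower, where 31% of all genes were called higher and 31% lower. Socs1, an inhibitor of Jak kinases, was at 5.33 and 4.07 FPKM in wild-type ActB and 8.08 and 11.5 FPKM in PB (log2 change 0.91, limma adjusted p = 0.000765), and Socs2 rose by 1.82. Isg20, which is counted among the 4 higher, is an antiviral exonuclease rather than an inhibitor of the pathway. It rose from 11.40 and 12.03 FPKM to 233 and 252 FPKM (log2 change 4.26, SE 0.23, limma adjusted p = 7.62e-08), close to the size of the change in Irf7. Usp25 and the phosphatase gene Ptpn6 fell by 2.32 and 1.99. Of 69 tested interferon-stimulated genes outside the members, 14 rose and 42 fell, with a median log2 change of -0.60. Tapbpl, a peptide editor of antigen presentation, rose by 2.52, and Ms4a4c, Ifi203 and Pyhin1 fell by 5.12, 3.44 and 2.29 on the log2 scale. Ifng itself was between 0.058 and 2.08 FPKM in all libraries, with 0.170 and 0.0813 FPKM in wild-type ActB and 1.21 and 0.871 FPKM in PB. The T cell and natural killer lists were also at their lowest in wild-type and ko ActB, with sums of at most 2.31 and 0.490 FPKM. In PB these sums reached 12.4 and 6.76 FPKM, with Cd3g at up to 8.17 FPKM and Eomes at up to 6.01 FPKM. Cd3e, Cd4, Cd8a, Thy1, Ncr1, Klrb1c, Klrd1 and Gzma stayed below 1 FPKM in every library. Thy1 went the other way and was listed at 0 in PrePB and PB. The part of T or natural killer cells in the Ifng values was not tested.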

How the data were processed

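Expression was measured by poly(A)-selected, stranded RNA-seq of 12 libraries. Per the submitters' processing notes, the tools used included bcl2fastq, TopHat2 2.0.14, Cufflinks 2.2.1 and Cuffnorm 2.2.1, with genome build mm9; the roles of the tools and the gene annotation are not given in the sources used here. The authors deposited 1 table of FPKM values per library, and no counts were used. FPKM carries no absolute depth, so no counting interval is given, and a value of 0 is described as listed at 0. FPKM of a gene falls when other transcripts take a larger share of the RNA.

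Genes at 1 FPKM or more in at least 2 libraries were fitted as log2(FPKM + 1) with limma-trend (limma 3.58.1, R 4.3.3), 1 coefficient for each of the 6 groups, all 12 libraries sharing 1 spread (6 residual degrees of freedom). Tests were two-sided, with Benjamini-Hochberg adjustment over all 11069 genes tested in each comparison and a call at adjusted p below 0.05. The fit was tested on simulated data. Comparisons were each pair of populations within a genotype (6), ko against wt in each population (3) and the 3 differences of the ko effect. The members, the lists of other genes and the tests were chosen with earlier results of these data known. Full values are given for up to 8 called members each way with the largest change from wild-type ActB to PB, every member called between genotypes, and Irf7, Irf9 and Stat2, for a short list of receptors and factors of the pathway, and for up to 4 called genes a list with the lowest p. Other members are given by value or range as examples, chosen after their values were seen.

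Alternatives were no filter or 5 FPKM, a pseudocount of 0.1, quantile normalization, rescaling to equal totals without small RNA genes, the compared groups alone, a minimum log2 change of 1, leaving out libraries, and a replicate block. A term for the numerical pattern of low values, and the set of 8 libraries alone, were added after seeing the data. Promoter windows are RefSeq, GRCm38.p6, used for sequences alone, since FPKM tables carry no coordinates. Values of 1 gene of the pathway lists are not reported here.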

Additional observations from a re-analysis of the deposited data

How the results depend on the processing

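With 2 libraries a group, single libraries decide small changes. Leaving out 1 library of the compared groups gave 23 to 26 calls for wild-type PB against ActB, 20 to 23 for PrePB against ActB and 2 to 3 for PB against PrePB. In ko the ranges were 23 to 26, 20 to 22 and 6 to 8, and for ko against wt in PB 0 to 1. These smaller sets also leave the fit fewer degrees of freedom. The shares of all genes called in them are not given, so whether members lost calls more than other genes is not known. A minimum log2 change of 1, which removes small changes by construction, gave 17, 15 and 1 calls in wild type, 16, 14 and 1 in ko, and 0 for ko against wt in PB. Rescaling to equal totals gave 13 calls for wild-type PB against PrePB, 2 higher and 11 lower, where 2.85% of all genes were higher and 10.3% lower. For ko PB against ActB it gave 6 higher and 26 lower, where 21.9% and 46.3% of all genes were. Isg15 and Samhd1 turned to -0.10 and -0.061 in wild-type PB against ActB. Without wild-type replicate 1 of all populations, 1 call was left for wild-type PB against PrePB and 0 for ko against wt in PB. With the compared groups alone, or with a term for the numerical pattern (chosen after seeing the data), ko against wt in PB had 0 calls. The cause of these losses was not tested, and apart from rescaling they were not set against the share of all genes called. A core with 3 bases in place of 2 between the GAAA repeats was in 17.1% of member windows in place of 48.6%.

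Same-numbered libraries of a genotype deviated together in part: correlations of the replicate differences over genes between populations were 0.05, 0.24 and 0.32 in wild type and 0.29, 0.11 and 0.10 in ko. All 6 were above 0 but not all above 0.1, and Xist and Ddx3y set wild-type replicate 1 apart in all 3 populations; the labels do not say what a number marks, so whether it pairs samples is not known and the fit without the block was kept. With the replicate block, calls were 31, 24 and 10 in wild type, 29, 24 and 16 in ko, and 0, 0 and 1 for ko against wt in ActB, PrePB and PB.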
